A study of Mus musculus with 12 samples.

Results

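The constitutive proteasome subunits are the genes whose symbol is Psma, Psmb, Psmc or Psmd followed by a number, without the inducible subunits Psmb8, Psmb9 and Psmb10. The rule used symbols and no measured value. It found 36 of the 21958 genes in the deposited table, 16 of the core particle (Psma, Psmb) and 20 of the regulatory particle (Psmc, Psmd). Of these, 35 passed the filter on low counts and were tested among 12549 genes. Psmb11 was the member that did not pass.

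The proteasome is the protease that degrades most short-lived and misfolded proteins tagged with ubiquitin. Its core is a barrel of alpha and beta rings with the proteolytic sites inside. The regulatory particle caps the barrel: its lid and base bind ubiquitin chains, remove them and use a ring of ATPases to unfold the substrate and thread it into the core. Blood cell precursors that make large amounts of protein, and plasma cells in particular, are known to depend on this capacity.

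RNA was measured in bone marrow cells of mice of genotype WT in 12 samples, 4 in each of 3 groups. Control mice had no treatment, model mice had CTX, the agent used to bring about myelosuppression, and cornus mice received nanoparticles self-assembled from Cornus officinalis. The labels do not say whether cornus mice also received CTX, and they give no dose, time, sex or age. The submitters call the samples biological replicates, but the labels name no separate animals; a p-value here therefore reflects only how these samples vary. In bulk RNA, fewer cells of a type and less RNA per cell cannot be told apart.

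Library totals lay between 13902122 and 19139771 counts. All 10 markers used to check the marrow label were detected in every library, from the pan-leukocyte gene Ptprc at 515 CPM (counts scaled to a common library size) or more to the progenitor gene Cd34 at 10.8 CPM or more. Controls 1 to 3 were more alike than other samples of a group: over all genes, the chi-square statistic divided by its degrees of freedom was 1.72 to 1.92 for their 3 pairs and 12.9 to 147 for the other 15 pairs. They may be 1 source sequenced repeatedly, which the labels do not settle, so control SDs with n = 4 can be too small or rest mainly on control 4. A second fit therefore summed controls 1 to 3 into 1 sample, and a change against control was called only where both fits passed. That second fit gives control 4 more weight, so it does not guard against a change that rests on control 4. Adjusted p-values are those of the fit with 12 samples unless said to be with controls summed. Control 4 stood apart. Its summed CPM of 10 erythroid markers was 111294, against 27910 to 28367 in controls 1 to 3, 398 to 12597 in the model libraries and 298 to 19174 in the cornus libraries. None of the 10 was at 0 in any group. The 10 B lineage markers summed to 2345 CPM in control 4, 1006 to 1041 CPM in controls 1 to 3, 94.9 to 141 CPM in the model libraries and 13.3 to 198 CPM in the cornus libraries. The 7 promyelocyte markers ran the other way, at 2625 to 3090 CPM in controls, 4519 to 7813 CPM in model and 3892 to 7155 CPM in cornus libraries. Late neutrophil markers (10) summed to 23552 to 39091 CPM in controls, 13403 to 33737 in model and 34285 to 49124 in cornus libraries. Stromal markers (6) summed to 106 to 185 CPM in controls, 28.3 to 54.7 in model and 66.5 to 258 in cornus libraries. For these late neutrophil and stromal lists, every cornus library lay above every model library. T and NK markers (8) summed to 117 to 134 CPM in controls, 19.6 to 62.1 in model and 36.2 to 66.5 in cornus libraries. The part of these shifts in the results below was not tested.

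In control marrow, Psma6, an alpha ring subunit, had the highest level per length, at 129.6 ± 16.1 FPKM (fragments per kilobase scaled by library size, SD, n = 4). Psmb4, a beta ring subunit, followed at 79.4 ± 11.2 FPKM, and Psmc1, an ATPase, at 75.003 ± 10.995 FPKM. Neighbours in the order from Psmb4 down to Psmd6 differed by less than the larger of their SDs. At the lower end stood the catalytic subunit Psmb7 at 13.8 ± 0.568 FPKM, the scaffold Psmd1 at 11.74 ± 0.513 FPKM, and the assembly chaperones Psmd5 at 8.997 ± 0.337 FPKM and Psmd9 at 5.21 ± 1.72 FPKM. Psma8, an alpha subunit known from testis, was at 1.18 ± 0.182 FPKM. Psmb11, the catalytic subunit of the thymus proteasome, had 5 reads in all 12 libraries together: 1 in control 1, 1 in model 2, 1 in model 4 and 2 in cornus 2. These levels divide counts by the deposited gene length, so a long or overlapping gene model lowers them.

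Relative to untreated marrow, 9 of the 35 tested members fell in the model and 23 in the cornus group, in both fits. These are 25.7% and 65.7% of the tested members, against 15.8% and 19.7% of all genes called lower in both fits. The model share lay closer to that of all genes than the cornus share did. Psmd1, a scaffold of the regulatory particle, was the only member called higher, and was so in each group. The rest of the members were not called. Over all members together, 0.341%, 0.345%, 0.344% and 0.426% of reads in controls 1 to 4 came from proteasome genes. The shares were 0.342%, 0.316%, 0.335% and 0.386% in the model libraries and 0.287%, 0.287%, 0.265% and 0.285% in the cornus libraries. All 4 cornus libraries lay below the 8 others, while model and control libraries overlapped. These are shares of unscaled counts. In the mean log2 CPM of tested members, which is scaled, cornus 1 (6.181) lay above model 2 (6.173). There, all cornus libraries still lay below all controls, and cornus and model overlapped. The exact (Clopper-Pearson) 95% intervals of these shares were at most 0.00333 percentage points to either side and cover counting error only.

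**Figure D1:**
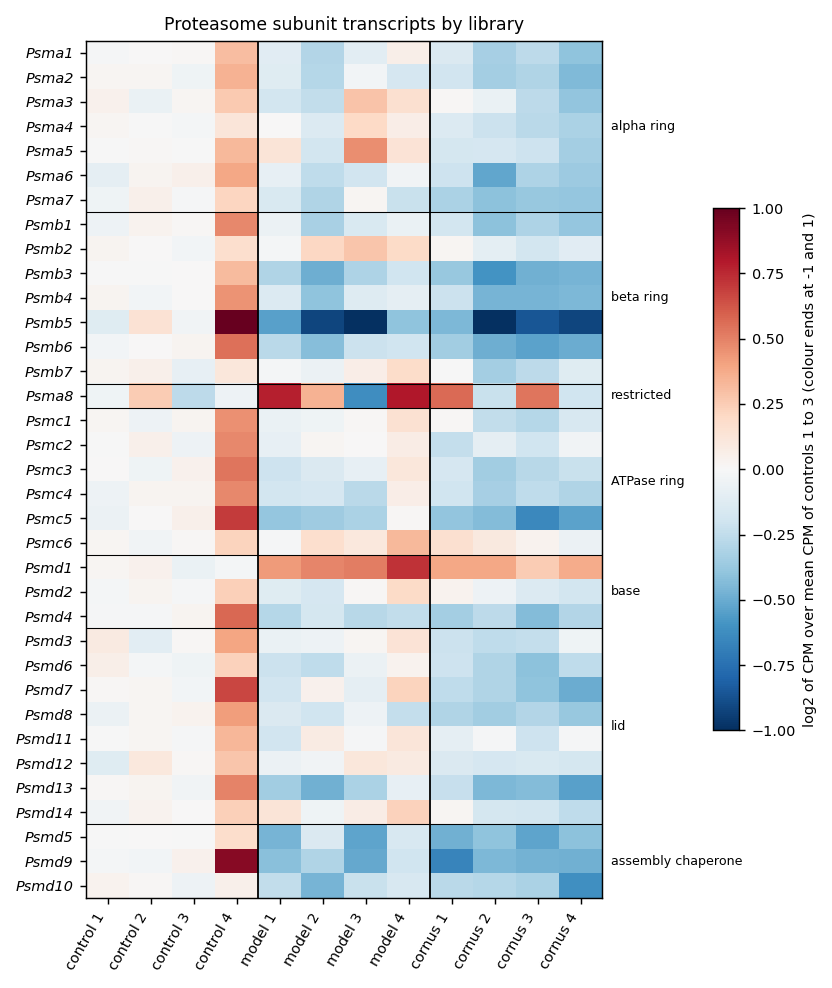
Each cell gives the log2 of a member's CPM in 1 library over the mean CPM of controls 1 to 3, for the 35 tested members in rows grouped by role and the 12 libraries in columns. Control 4 is above controls 1 to 3 for most members, the cornus columns are mostly blue, and Psmd1 is red in all 8 model and cornus libraries.

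Model marrow addresses what CTX myelosuppression does to these transcripts. Of the 35 tested members, 10 were called lower at a Benjamini-Hochberg adjusted p under 0.05 in edgeR's quasi-likelihood test and 9 of them in both fits, against 20.9% of all genes called lower and 15.8% in both fits. Psmd1 was the 1 member called higher, against 23.2% of all genes called higher and 17.7% in both fits. The 9 are 25.7% of the tested members. The median log2 change of the members was -0.19, that of all genes tested was -0.00, and 27 of 35 members had a negative change against 50.2% of all genes. Groups did not overlap for 10 members that were lower, against 20.8% of all genes, and for 1 that was higher, against 23.3%. Without control 4 the members' median was -0.10, 7 were called lower, against 2293 of all 12726 genes in that fit, and 20 of 35 changes were negative.

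In cornus against control, 23 members, or 65.7%, were called lower in both fits, against 23.6% of all genes in 1 fit and 19.7% in both. In either direction 47.6% of all genes were called. Psmd1 was again the 1 member called higher, against 24.0% of all genes and 18.6% in both fits. The median log2 change of the members was -0.38 and that of all genes -0.02, with 32 of 35 members negative against 51.3% of all genes. For 23 members every cornus library lay below every control, against 24.4% of all genes, and for 1 every cornus library lay above, against 24.2%. Without control 4 the median was -0.29 and 21 members were called lower, against 19.7% of all genes in that fit. This comparison and the one before share their control libraries.

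In cornus against model, no member was called by edgeR's quasi-likelihood test, against 0.151% of all genes (10 or 0.0797% higher and 9 or 0.0717% lower). The smallest adjusted p of a member was 0.107, for Psma4, an alpha ring subunit, whose log2 change was -0.27 ± 0.08 (SE). At an unadjusted p under 0.05, 9 members were lower and 0 were higher, against 1359 and 1256 of all 12549 genes. DESeq2's Wald test called 0 members, against 423 higher and 379 (2.21%) lower of 17135 genes. With limma on FPKM, 5 members were called lower, against 4.89% of all genes. All genes were shifted down in that fit: 69.9% had a negative change, 548 were called lower and 55 higher. The median there was -0.14 for all genes and -0.29 for the members. In edgeR's test all 35 changes were negative, against 52.9% of all genes, with a median of -0.17 against -0.02. They lay close together, with an interquartile range of 0.07 on the log2 scale against 0.39 for all genes. For 7 members (Psma4, Psma7, Psmc5, Psmd1, Psmd7, Psmd8 and Psmd12) every cornus library was below every model library, against 7.45% of all genes, and for 0 above, against 6.05%. Without model 4, 33 of 35 changes were negative and the median was -0.12. Without control 4, which enters through the shared estimate of spread, 3 members were called lower, against 4.21% of all genes in that fit.

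**Figure D2:**
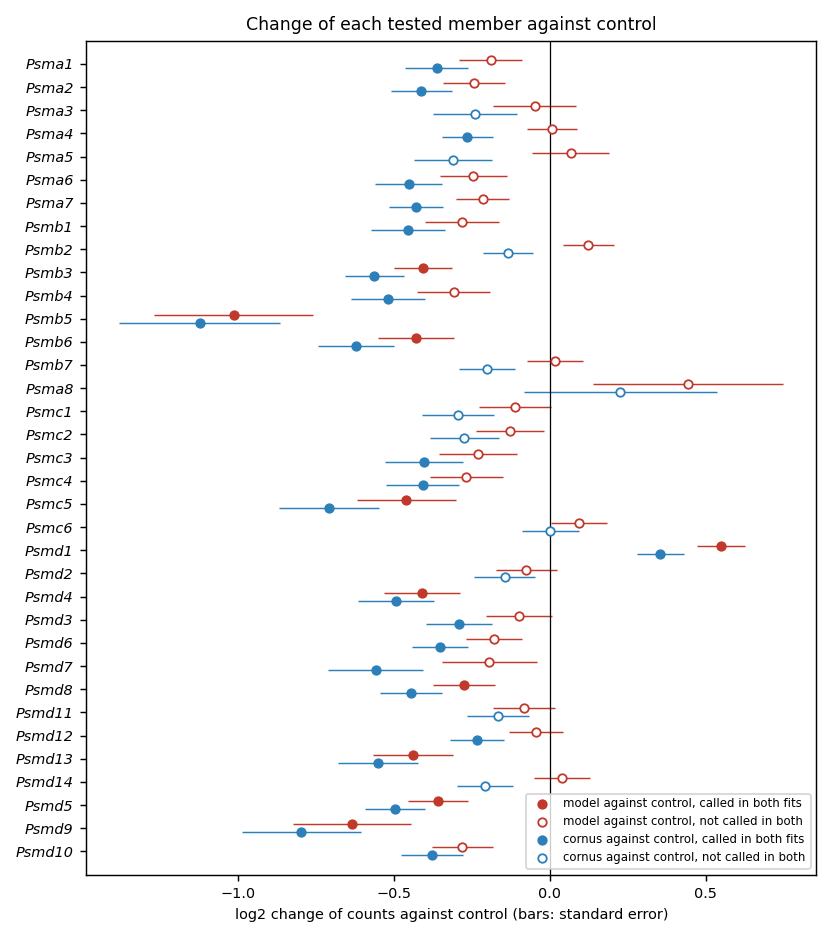
Points give the log2 change of each of the 35 tested members against control with its standard error, in red for model and in blue for cornus. Filled points passed an adjusted p of 0.05 in both fits and open points did not. Most points lie left of 0, Psmb5 lies farthest left, and Psmd1 is the only filled pair to the right.

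Alpha ring subunits gate the core and dock the regulatory particle. Of the 7, 0 were called against control in the model (smallest adjusted p 0.0573) and 5 fell in cornus: Psma1, Psma2, Psma4, Psma6 and Psma7. Of all genes, 15.8% fell in model and 19.7% in cornus, in both fits. Psma7 measured 144, 153, 146 and 172 CPM in controls 1 to 4, 133, 120.0, 149.9 and 127 CPM in model libraries and 119, 111, 113 and 113 CPM in cornus libraries. All cornus values were below all others, and model 3 lay among the controls. The change of Psma7 in cornus against control was -0.43 ± 0.09 (adjusted p 0.00205, edgeR, and 0.00788 with controls summed), and in model against control it was -0.22 ± 0.09 (adjusted p 0.0573).

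Psma3 and Psma5, both alpha ring subunits, were not called in any comparison. A processed pseudogene, Gm8394, carries stretches at 98% identity or more to 76.5% of the Psma5 transcript, and Gm13835 to 23.4% of that of Psma3, so their counts are uncertain. Without the 4 members with the widest such stretches, 8 of 31 fell in model and 22 of 31 fell in cornus, and Psmd1 rose in both. Of all genes, 15.8% and 19.7% were called lower in both fits, and 17.7% and 18.6% higher. The 4 are Psma3, Psma5, Psmb5 and Psmb7.

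Beta ring subunits carry the proteolytic sites. Of the 7, 3 fell in the model (Psmb3, Psmb5, Psmb6) and 5 in cornus (these and Psmb1, Psmb4), against 15.8% and 19.7% of all genes. Psmb5 provides the chymotrypsin-like site and is the target of bortezomib. Psmb6 provides the caspase-like site, Psmb7 the trypsin-like site, and the other beta subunits are structural.

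Psmb5 had the largest change of all members. It measured 9.6, 11.4, 10.1 and 20.9 CPM in controls 1 to 4, 7.1, 5.5, 5.2 and 7.8 CPM in model libraries and 7.6, 5.0, 5.7 and 5.5 CPM in cornus libraries. Every control was above every other library, and control 4 was 2.02 times the mean of controls 1 to 3. The log2 change was -1.02 ± 0.26 in model (adjusted p 0.00754, edgeR) and -1.12 ± 0.26 in cornus (adjusted p 0.00446). With controls summed the adjusted p were 0.00943 and 0.00603. Without control 4 the change was -0.69 in model (adjusted p 0.0134) and -0.81 in cornus (adjusted p 0.00621). Counts of Psmb5 ran from 70 to 293 a library, and 88.4% of its transcript has a near-identical stretch in the processed pseudogene Gm3375, so its level and change are uncertain. Cornus and model libraries overlapped, with a log2 change of -0.11 and a 95% interval from -0.62 to 0.40.

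Psmb6 measured 80.2, 82.3, 83.3 and 119.7 CPM in controls, 68.1, 61.1, 70.7 and 71.3 CPM in model and 64.3, 58.5, 56.6 and 58.0 CPM in cornus libraries. Controls lay above all other libraries, and cornus 1 lay within the model range. It fell by 0.43 on the log2 scale in model (SE 0.12, adjusted p 0.0138, edgeR) and by 0.62 in cornus (SE 0.12, adjusted p 0.00193). With controls summed the adjusted p of Psmb6 were 0.0138 and 0.00408, and without control 4 it fell by 0.27 in model (adjusted p 0.0131). Psmb3 measured 111, 111, 112 and 138 CPM in controls, 90.0, 79.1, 89.6 and 96.7 CPM in model and 85.6, 73.4, 79.5 and 80.6 CPM in cornus libraries. Again every control was above every other library. Psmb3 fell by 0.41 in model (SE 0.09, adjusted p 0.00472) and by 0.56 in cornus (SE 0.09, adjusted p 0.000793, the smallest among the core subunits), with 0.0136 and 0.00414 when controls were summed.

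The third catalytic subunit, Psmb7, was not called. It measured 47.9, 48.8, 44.5 and 50.9 CPM in controls, 46.6, 45.2, 49.3 and 53.4 CPM in model and 47.1, 37.2, 39.4 and 43.4 CPM in cornus libraries. The groups overlapped. Its log2 change was 0.02 in model, with a 95% interval from -0.16 to 0.19, and -0.20 in cornus, with an interval from -0.38 to -0.03 (adjusted p 0.892 and 0.0822, edgeR). In single edgeR fits it passed as lower in cornus with upper-quartile factors (adjusted p 0.0386) and, separately, without cornus 1 (adjusted p 0.0424). With controls summed, its adjusted p in cornus was 0.135 (edgeR). Psmb7 shares 35.1% of its transcript with the overlapping gene Nek6, and whether counting used strand is not given in the sources used here. Psmb2, a structural beta subunit, had a log2 change of 0.12 in model (adjusted p 0.236) and of -0.13 in cornus (adjusted p 0.190).

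Psma8, on chromosome 18, was the one tested member with a low level. It measured 2.9, 3.6, 2.5 and 2.9 CPM in controls, 5.2, 3.8, 2.0 and 5.3 CPM in model and 4.5, 2.6, 4.4 and 2.6 CPM in cornus libraries. Groups overlapped, and no comparison called it (adjusted p 0.254 in model and 0.568 in cornus).

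**Figure D3:**
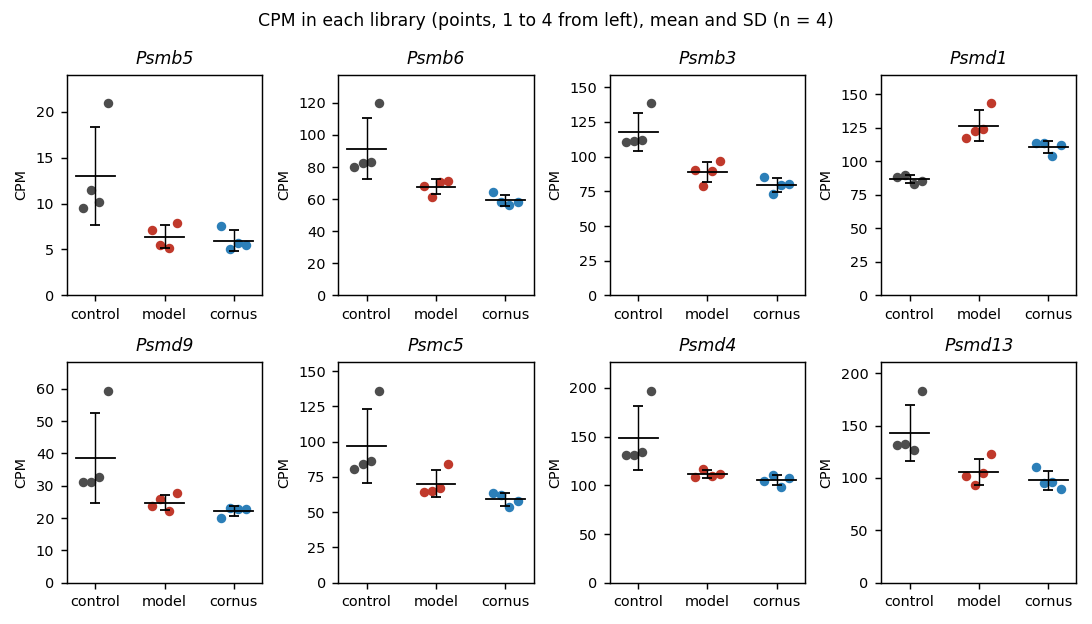
Points give CPM in each library for 8 members, with controls, model and cornus from left to right, and lines give the mean and SD (n = 4). Control 4 is the highest control for Psmb5, Psmb6, Psmb3, Psmd9, Psmc5, Psmd4 and Psmd13, and Psmd1 is higher in all model and cornus libraries than in any control.

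In the regulatory particle, the 6 ATPases (Psmc1 to Psmc6) form the base ring that unfolds substrates. Psmc5 fell in model and in cornus, and Psmc3 and Psmc4 fell in cornus. Psmc5 measured 80.3, 84.0, 86.5 and 136 CPM in controls, 64.0, 65.3, 67.3 and 84.2 CPM in model and 63.5, 62.0, 53.5 and 57.7 CPM in cornus libraries. Model 4 lay within the controls, and all cornus libraries lay below all others. The log2 change was -0.46 ± 0.16 in model (adjusted p 0.0342, edgeR) and -0.71 ± 0.16 in cornus (adjusted p 0.00412), with 0.0246 and 0.00571 when controls were summed. In model, this call was lost without control 4 (change -0.25, adjusted p 0.0827) and without any 1 of model 1, 2 or 3. Psmc6 had changes of 0.09 in model and 0.00 in cornus (adjusted p 0.421 and 0.991).

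The base also holds 2 large scaffolds, Psmd1 and Psmd2, and the ubiquitin receptor Psmd4. Psmd1 docks other ubiquitin receptors and was the only member called higher. It measured 88.3, 89.6, 83.1 and 85.6 CPM in controls, 117, 122, 124 and 143 CPM in model and 114, 114, 104 and 112 CPM in cornus libraries. Controls lay below all others, and cornus libraries lay between controls and model. Psmd1 rose by 0.55 in model (SE 0.08, adjusted p 0.000223, edgeR) and by 0.35 in cornus (SE 0.08, adjusted p 0.00304). With controls summed the adjusted p of Psmd1 were 0.00541 and 0.0300. In cornus against model its change was -0.19 ± 0.08 (adjusted p 0.178). All 12 fits that left out 1 library kept both calls. The gene models of Gm21972 on the same strand and Htr2b on the other overlap 7.61% of its exons.

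Psmd2 measured 206, 213, 207 and 246 CPM in controls, 192, 186, 210.1 and 239 CPM in model and 214, 201, 189 and 184 CPM in cornus libraries. The groups overlapped, and its 95% intervals ran from -0.27 to 0.12 in model and from -0.34 to 0.05 in cornus. Psmd4 measured 131, 131, 135 and 197 CPM in controls, 109, 117, 109 and 112 CPM in model and 105, 111, 98.2 and 108 CPM in cornus libraries. Every control was above every other library. Psmd4 fell by 0.41 in model (SE 0.12, adjusted p 0.0175, edgeR) and by 0.50 in cornus (SE 0.12, adjusted p 0.00656), with 0.0137 and 0.00663 when controls were summed. Without control 4, Psmd4 fell by 0.24 in model (adjusted p 0.00869), and limma on FPKM did not call it there (adjusted p 0.0560).

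The 8 lid members include the deubiquitinase Psmd14, which removes ubiquitin from the substrate, and its partner Psmd7. In model, Psmd8 and Psmd13 fell, and in cornus Psmd3, Psmd6, Psmd7, Psmd8, Psmd12 and Psmd13 fell. Psmd13 measured 131, 132, 127 and 183 CPM in controls, 102, 92.9, 104 and 122.8 CPM in model and 111, 95.04, 96.0 and 89.3 CPM in cornus libraries. Controls were above all others, and model and cornus overlapped. Psmd13 fell by 0.44 in model (SE 0.13, adjusted p 0.0166, edgeR) and by 0.55 in cornus (SE 0.13, adjusted p 0.00506), with 0.0214 and 0.00864 when controls were summed. Of its exon length, 10.1% lies over exons of Sirt3 on the other strand.

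Psmd7 measured 85.2, 85.7, 83.2 and 134 CPM in controls, 74.0, 87.2, 79.4 and 98.7 CPM in model and 71.0, 68.6, 64.0 and 60.04 CPM in cornus libraries. All cornus values were below all others, and model and control overlapped. Psmd7 fell by 0.56 in cornus (SE 0.15, adjusted p 0.0108, edgeR, and 0.0102 with controls summed) and by 0.37 without control 4 (adjusted p 0.0124). Its change in model was -0.19 ± 0.15 (adjusted p 0.311). Psmd14 measured 102, 107, 105 and 124 CPM in controls, 115, 102, 110.2 and 123.1 CPM in model and 106, 92.9, 92.2 and 87.9 CPM in cornus libraries. Groups overlapped in each comparison, with adjusted p of 0.749 in model and 0.0747 in cornus. The model call of Psmd8 held in 3 of 12 fits that left out 1 library, and the cornus calls of Psmd12 and Psmd3 held in 2 and 7 of 12. Without control 4 their changes were -0.15, -0.17 and -0.19 (adjusted p 0.0623, 0.0920 and 0.0930). The cornus calls of Psma4 and Psmc3 were lost without cornus 4 and without cornus 2 (adjusted p 0.0531 and 0.0527), and Psmc3 changed by -0.26 without control 4, against -0.40 with it.

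The 3 assembly chaperones Psmd5, Psmd9 and Psmd10 bind ATPases while the base is built and are absent from the finished particle. Psmd5 and Psmd9 fell in model, and all 3 fell in cornus. Psmd9 measured 31.2, 31.1, 32.6 and 59.4 CPM in controls, 23.6, 25.7, 22.2 and 27.6 CPM in model and 20.1, 23.2, 22.8 and 22.7 CPM in cornus libraries. Every control exceeded every other library, and control 4 was 1.88 times the mean of controls 1 to 3. Psmd9 fell by 0.64 in model (SE 0.19, adjusted p 0.0176, edgeR) and by 0.80 in cornus (SE 0.19, adjusted p 0.00545), with 0.0116 and 0.00519 when controls were summed. Without control 4 it fell by 0.35 and 0.52 (adjusted p 0.0126 and 0.00150), and without model 3 the model call was lost (adjusted p 0.0503). The antisense gene Gm26745 overlaps 25.5% of its exon length, so reads of the 2 cannot be told apart if strand was not used. Psmd10 was called in model in 1 fit only (adjusted p 0.0353, and 0.112 with controls 1 to 3 summed).

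Promoters of the 2 members that fell most and of the 1 that rose in model are shown because they stand at the ends of the range of change. Each line gives 250 bases up to the transcript start, from RefSeq on build GRCm38.p6: Psmb5 at chr14:54617996-54618245 on the minus strand, Psmd9 at chr5:123227940-123228189 and Psmd1 at chr1:86064369-86064618, both on the plus strand. Capitals mark matches on either strand to CCAAT, to the antioxidant response element core TGACNNNGC, which the regulator of proteasome genes Nfe2l1 is known to bind, to the ETS motif CCGGAAG and to the GC box GGGCGG.
Psmb5: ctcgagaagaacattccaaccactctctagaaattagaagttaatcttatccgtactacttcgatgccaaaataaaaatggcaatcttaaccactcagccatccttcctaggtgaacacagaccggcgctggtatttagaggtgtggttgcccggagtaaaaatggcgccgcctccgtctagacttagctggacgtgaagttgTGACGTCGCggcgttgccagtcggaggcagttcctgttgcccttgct
Psmd9: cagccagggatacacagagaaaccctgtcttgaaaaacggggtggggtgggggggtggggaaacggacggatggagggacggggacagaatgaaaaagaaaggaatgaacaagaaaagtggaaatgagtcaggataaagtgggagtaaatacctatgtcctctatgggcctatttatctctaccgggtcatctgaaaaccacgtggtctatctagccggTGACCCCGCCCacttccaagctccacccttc
Psmd1: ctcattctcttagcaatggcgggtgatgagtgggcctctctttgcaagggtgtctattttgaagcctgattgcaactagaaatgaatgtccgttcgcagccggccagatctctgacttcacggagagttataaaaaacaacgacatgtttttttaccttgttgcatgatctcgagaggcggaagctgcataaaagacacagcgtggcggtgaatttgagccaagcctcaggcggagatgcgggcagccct
The Psmb5 window holds the response element core at 47 to 39 bases before the start. The Psmd9 window holds it at 31 to 23 bases before the start, overlapping a GC box on the other strand at 26 to 21 bases. The Psmd1 window holds none of the 4 motifs. Among other members, the response element core was in windows of Psmb6, which fell in model, and of Psmc6 and Psmd12, which were not called there. It was absent from the windows of Psmb3, Psmc5, Psmd4, Psmd5, Psmd8 and Psmd13, which fell in model. A link between motif and change was not tested.

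RefSeq windows were found for 29 members, 31 windows in all, and shares are set against 32851 windows of the same length. The response element core was in 16.1% of members' windows and 10.2% of all, CCAAT in 38.7% and 33.9%, the GC box in 54.8% and 32.7%, and the ETS motif in 32.3% and 6.91%. Among the 18 windows of the regulatory particle, 9 held the ETS motif, and among the 13 of the core 1 did. Windows are not genes: Psmc2 and Psma6 have more than 1 each, and every Psmc2 window held the ETS motif. No window was found for Psma8, Psmb1, Psmb2 and Psmb7 of the core, or for Psmc3, Psmd3 and Psmd7. These motif counts are matches of letters and were not tested.

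Members of both particles were among those that fell, and the difference between the particles was not tested. In the model, 3 of 15 tested core members and 6 of 20 regulatory members fell in both fits, against 15.8% of all genes. In cornus 10 of 15 and 13 of 20 fell, against 19.7% of all genes. The mean log2 CPM over core members minus that over regulatory members was -0.41 ± 0.04 in controls, -0.42 ± 0.09 in model and -0.46 ± 0.09 in cornus libraries (SD, n = 4), and all 3 groups overlapped. The group differences were -0.01 for model against control, -0.04 for cornus set against model and -0.05 for cornus set against control. With the medians over members in place of means, the first and the last were -0.17 and -0.22. Without Psma8, chosen as an alternative after the data were seen, they were -0.05, -0.04 and -0.09.

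**Figure D4:**
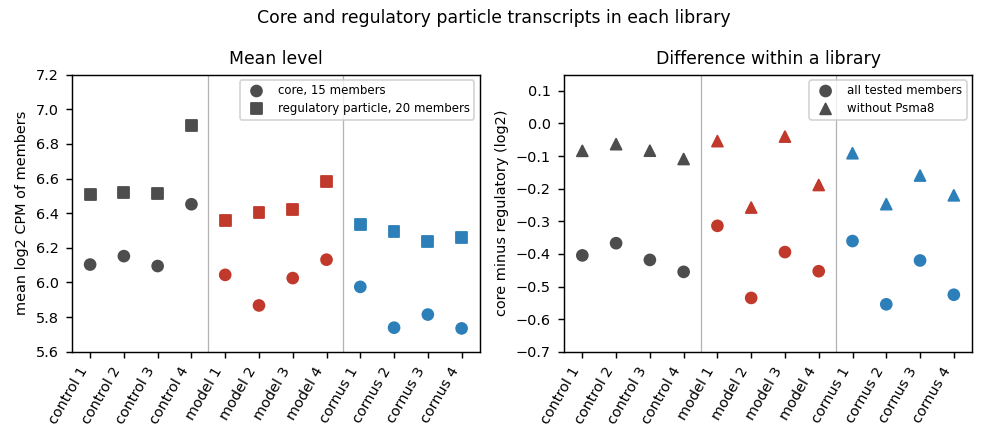
The left panel gives the mean log2 CPM of 15 core and 20 regulatory members in each library, and the right panel their difference with all tested members and without Psma8. These CPM means are not divided by gene length, so the offset between the particles is not a comparison of amounts. The differences of the 3 groups overlap.

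Of the other genes of the pathway, 44 of 45 listed were found in the table and all were tested. In model against control, 5 rose and 9 fell in both fits, in cornus against control 4 rose and 14 fell, and in cornus against model 0 were called. In model these are 11.4% and 20.5% of the 44, against 17.7% and 15.8% of all genes, and in cornus 9.09% and 31.8%, against 18.6% and 19.7%. By list, in model, 1 bound factor of 9 rose and 2 fell, of 6 ubiquitin and activating enzyme genes 1 rose and 2 fell, and of 9 shuttle and Vcp complex genes 1 rose and 1 fell. Of 5 activators and inhibitors 0 rose and 1 fell, of 5 assembly factors 0 rose and 1 fell, and of 7 genes of transcriptional control 2 rose and 2 fell. In cornus the same 6 lists had 1, 1, 0, 0, 0 and 2 genes that rose and 2, 2, 2, 1, 4 and 3 that fell. The immunoproteasome subunits Psmb8, Psmb9 and Psmb10 replace Psmb5, Psmb6 and Psmb7 in cells exposed to interferon. None was called in any comparison, and model 3 was the highest library for each. Psmb8 was at 34.3 FPKM in model 3 and at 13.1 to 20.3 FPKM in the other 11 libraries.

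**Figure D5:**
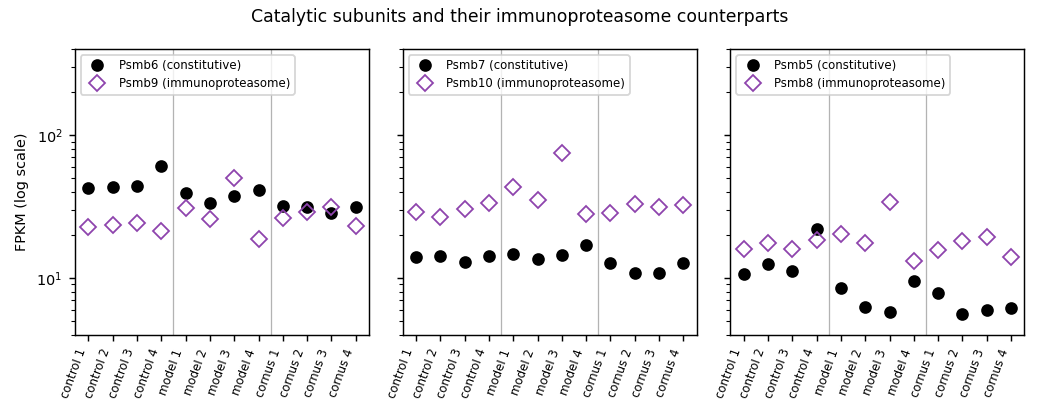
FPKM, on a log scale, of each catalytic subunit and its immunoproteasome counterpart in the 12 libraries. Psmb10 lies above Psmb7 in all 12 libraries, Psmb8 above Psmb5 in all but control 4, and Psmb9 below Psmb6 in all but model 3 and cornus 3. Levels of Psmb5 and Psmb7 are uncertain because other genes share part of their transcripts.

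In control 4, Psmb5 was at 22.1 FPKM and Psmb8 at 18.4 FPKM. In the other 11 libraries Psmb8 was the higher, for example 17.5 against 6.27 FPKM in model 2 and 18.1 against 5.601 FPKM in cornus 2. The mean log2 CPM of the 3 inducible subunits minus that of the 3 constitutive ones was 0.75 ± 0.21 in controls, 1.48 ± 0.72 in model and 1.498 ± 0.247 in cornus libraries (SD, n = 4). Every cornus library exceeded every control, and model libraries spread from 0.63 to 2.40.

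Among the 5 assembly factors of the core, Psmg3 fell in model and Psmg2, Psmg3, Psmg4 and Pomp fell in cornus. Psmg3 measured 5.1, 5.9, 5.5 and 7.8 CPM in controls, 3.0, 2.5, 2.5 and 3.7 CPM in model and 3.4, 2.7, 2.0 and 1.9 CPM in cornus libraries. Controls were above all others. It fell by 1.05 in model (SE 0.23, adjusted p 0.00345, edgeR) and by 1.30 in cornus (adjusted p 0.00118), with 0.0132 and 0.00561 when controls were summed. The cornus call of Psmg4 was lost without control 3 (adjusted p 0.0578), and Psmg2 fell by 0.37 without control 4, against 0.61 with it.

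Genes that act on the transcription factor Nfe2l1 moved in both directions. Syvn1 and Sel1l form the ligase complex that turns it over at the endoplasmic reticulum, Ngly1 removes its sugars and Ddi2 cleaves it to the active form. In model, Syvn1 fell by 1.20 (adjusted p 0.000364, edgeR) and Ngly1 fell by 0.60 (adjusted p 0.000168), while Ddi2 rose by 0.65 (adjusted p 0.000152) and Sel1l rose by 0.86 (adjusted p 0.000841). With controls summed these adjusted p ran from 0.00147 (Syvn1) to 0.00613 (Sel1l). All 4 were called in the same direction in cornus. Nfe2l1 itself was at 91.5, 93.5, 89.9 and 83.2 CPM in controls, 104, 97.6, 113 and 87.9 CPM in model and 102, 99.1, 100.9 and 100.7 CPM in cornus libraries. It was not called (adjusted p 0.106 and 0.0987).

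Of genes that supply ubiquitin or bind the particle, the ubiquitin precursor Ubb fell by 0.70 in model (adjusted p 0.00183, edgeR). Txnl1, a thioredoxin bound to the regulatory particle, fell by 0.44 (adjusted p 0.0110), and Sem1, a small lid subunit with no Psm symbol, fell by 0.49 (adjusted p 0.0123). In the other direction, the ubiquitin-activating enzyme Uba6 rose by 0.65 (adjusted p 0.00156), Ecpas, a scaffold on the proteasome, rose by 0.47 (adjusted p 0.000867), and the shuttle receptor Rad23b rose by 0.43 (adjusted p 0.00132). With controls summed these adjusted p ran from 0.00452 (Ubb) to 0.0403 (Sem1), and without control 4 Txnl1 fell by 0.29. In cornus, Ubb, Txnl1, Uba6 and Ecpas were called in the same direction, and Sem1 and Rad23b were not called.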

How the data were processed

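Bone marrow RNA was extracted with Trizol and selected with poly-T beads, per the labels' protocols. Reads were handled with fastp 0.22.0, HISAT2 2.1.0 and HTSeq 0.9.1, per the submitters' processing notes; the genome build, annotation and strand setting are not given in the sources used here. The authors deposited a read count per gene and sample, and these counts were tested. The authors also deposited FPKM, which is the count over the deposited length times a constant of each library (relative departure up to 4.93e-14). A line of the table was emptied for this work. Totals lay between 13902122 and 19139771 counts.

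The test was edgeR's quasi-likelihood F test (edgeR 4.0.16 under R 4.3.3) on TMM-scaled counts kept by filterByExpr, with all 12 samples and group alone as a term, and p-values were adjusted by Benjamini-Hochberg over 12549 genes with a threshold of 0.05. CPM used TMM-scaled library sizes, log2 CPM a prior count of 2, SE is the size of the log2 change divided by the root of F, and 95% intervals are 1.96 SE to either side. Controls 1 to 3 differed little beyond sampling noise and may be 1 source, so calls against control also had to pass with their counts summed. No groups overlap where every value of 1 group lies beyond every value of the other. The procedure was tested on simulated data.

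Alternatives were DESeq2 1.42.0 (size factors and Wald test), scaling by upper quartiles, all genes without a filter, at least 1 CPM in 4 libraries, limma 3.58.1 on log2(FPKM + 0.1) for genes with a mean FPKM of at least 0.5, only the 8 samples compared, a replicate block, and leaving out each library. Members' gene lengths equalled those of GENCODE M21 for all 36, but only 514 genes share start and end with it, so deposited coordinates are not printed. Near-identical copies and overlaps were found in GENCODE M21, and promoters came from RefSeq.

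The members and lists were chosen with earlier results of these data known. Values in every library are given for the 3 catalytic subunits, Psma8, Psmb11, Psmd2, Psmd4, Psmd14 and, in each comparison and particle, the 3 called members with the largest rise and fall. Psma7 and Psma4 were named after their values were seen. Pathway genes are named up to 6 in each direction by smallest p in model against control, with Psmb8, Psmb9 and Psmb10 always given. Nfe2l1 was named in addition.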

Additional observations from a re-analysis of the deposited data

Results flagged for a closer look

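Samples far from the rest of their group were sought in 48 sets of a gene and a group and in 12 sets of a summary and a group, by the gap of the extreme library to its neighbour over the whole range of the group (Dixon's rule). For 4 independent samples, chance flags about 1 in 20 groups. Controls 1 to 3 were nearly alike, which by itself brings control 4 near a flag, so that rate does not hold for the control group. Some of the genes were also named for their change against control. Of 11 results found, 9 had control 4 as the highest control. These were the mean log2 CPM of core members (0.840) and of regulatory members (0.972), and the log2 CPM of Psmb3 (0.959), Psmb6 (0.905), Psmc5 (0.859), Psmd4 (0.938), Psmd7 (0.938), Psmd9 (0.929) and Psmd13 (0.882). Control 4 also had the highest summed CPM of erythroid markers, 111294, and the part of that in these values was not tested. In the cornus group, cornus 3 was the lowest library for Psmd1 (0.875) and cornus 1 the lowest for Psmd9 (0.856).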

How the results depend on the processing

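Of the counts and differences that answer a comparison, 205 values under an alternative stayed within the set limits (a count within 1.5 times, a difference within 1 SD) and 23 moved. With limma on FPKM, 2 members were called higher and 5 lower in model against control, against 3247 and 1843 (16.5%) of all 11197 genes. In cornus against model it called 5 members lower, against 4.89% of all genes, and 69.9% of all genes had a negative change there. All genes called, cornus against model, were 19 in the main test, 603 with limma on FPKM, 12 with no filter, 802 by DESeq2's Wald test, and 0 with only the 8 samples compared, with controls 1 to 3 summed and with the replicate block. The core minus regulatory difference over medians of members was -0.17 (model against control) and -0.22 (cornus against control). Leaving out each library gave 7 to 12 members lower for model against control, where 16.8% to 21.4% of all genes were called lower. For cornus against control it gave 20 to 24, against 19.6% to 23.3% of all genes. For cornus against model it gave 0 to 3, against 0% to 4.21%, and all genes called ran from 0 to 1035 (highest without control 4). The core minus regulatory difference then ran from -0.05 to 0.02 for model against control, where its sign changed, from -0.08 to -0.0043 for cornus set against model and from -0.09 to -0.02 for cornus set against control. The cause of these shifts was not tested. Samples with the same number deviated together, at a correlation over 0.1, in 3 of 4 pairs of model and control samples. They did so in 2 of 4 pairs of the other groups, and 2 of 4 samples correlated best with their own number. Mean correlations for the same number and for other numbers were 0.195 and -0.065 in cornus and model. They were 0.098 and -0.045 in cornus and control, and 0.096 and -0.031 in model and control. These values do not settle whether the numbers mark pairs. The labels name no batch, so the main test left the numbers out. With the replicate block, 9 members were called lower for model against control and 25 for cornus, against 22.3% and 25.1% of all genes. Small changes are limited by 4 samples a group, of which controls 1 to 3 add little more than 1.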
